A study of Mus musculus with 12 samples.

Results

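The genes described here are 35 genes of fat tissue, read in whole plucked skin: 16 markers of mature adipocytes, 16 enzymes and regulators of lipid synthesis, and 3 lipases. They were chosen by name, as known adipocyte and lipogenesis genes, but with earlier results of these data known. Each was read by its brightest kept probe on the array. All 35 were among the 16181 genes that were kept for testing because a probe stood clear of the background in 3 or more of the 12 mice. Of the 35, 34 were above background on all 12 arrays. The exception was Lep, which was above background on 11 and not on the array of cKO mouse 5.

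Mouse skin has its own layer of fat cells below the dermis, the dermal white adipose tissue, which thickens and thins as hair follicles grow and rest. A mature adipocyte is recognised by the hormones it secretes, by the proteins that coat its lipid droplet, and by its transporters of fatty acids, glycerol and glucose. Lipid synthesis is not particular to adipocytes: sebaceous glands and keratinocytes of the skin make fatty acids with the same enzymes, so the 2 classes of genes were kept apart.

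Total RNA was measured on 12 one-colour arrays, 1 per mouse, in skin sampled 12 days after hair was plucked, in a study of what Sox4 contributes to hair regeneration. All mice were male, with a mixed C57Bl6/129Sv background. They were conditional knockouts of Sox4 in skin (cKO) or wild type (WT), in 2 experiments with 3 mice of each genotype in each. Exp 1 held cKO mice 2, 5 and 6, at 72, 72 and 68 weeks of age, and WT mice 1, 2 and 3, at 72, 72 and 69 weeks. Exp 2 held cKO mice 1, 3 and 4, at 17, 18 and 16 weeks, and WT mice 4, 5 and 6, at 20, 19 and 18 weeks. Age and experiment therefore cannot be told apart. The labels name no promoter or Cre line for the deletion.

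Values are log2 processed signals relative to the 75th percentile of their array, so 0 is that percentile and a difference of 1 is a 2-fold difference. Levels of different genes come from different probes and were not set against each other. The share of probes clear of the background ran from 53.9% in cKO mouse 5 to 62.6%. Sox4 averaged -3.40 ± 0.69 in cKO skin and 2.13 ± 0.18 in WT skin (SD, n = 6 each), with no overlap (exact permutation test within experiments, two-sided, p = 0.005, the smallest its 400 arrangements allow). Skeletal muscle genes differed widely between the libraries: the mean of 18 of them, each centred over the 12 mice, lay between -4.76 and -0.57 in Exp 1 and between -1.96 and 4.73 in Exp 2.

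The comparison of genotypes asks whether the fat genes of plucked skin differ when Sox4 is deleted. None of the 35 passed the test in cKO relative to WT skin averaged over both experiments (limma across all genes, Benjamini-Hochberg adjusted p under 0.05), where 0.42% of all genes passed. At an unadjusted p under 0.05 there were 3 (8.57%, against 12.2% of all genes). The median difference of the 16 adipocyte markers was 0.003 on the log2 scale, with 8 above and 8 below 0. That of the 16 lipid synthesis genes was 0.10, with 13 above 0, against a median of -0.04 over all genes, of which 42.3% were above 0. With each array scaled to its median, which moved the median of all genes to -0.12, 9 of the 16 synthesis genes were above 0. Without cKO mouse 1 it was 8 of 16, with a median of 0.0016, and without cKO mouse 3 the median was 0.23. In a bulk sample, fewer cells of a type and less RNA per cell cannot be told apart.

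**Figure D1:**
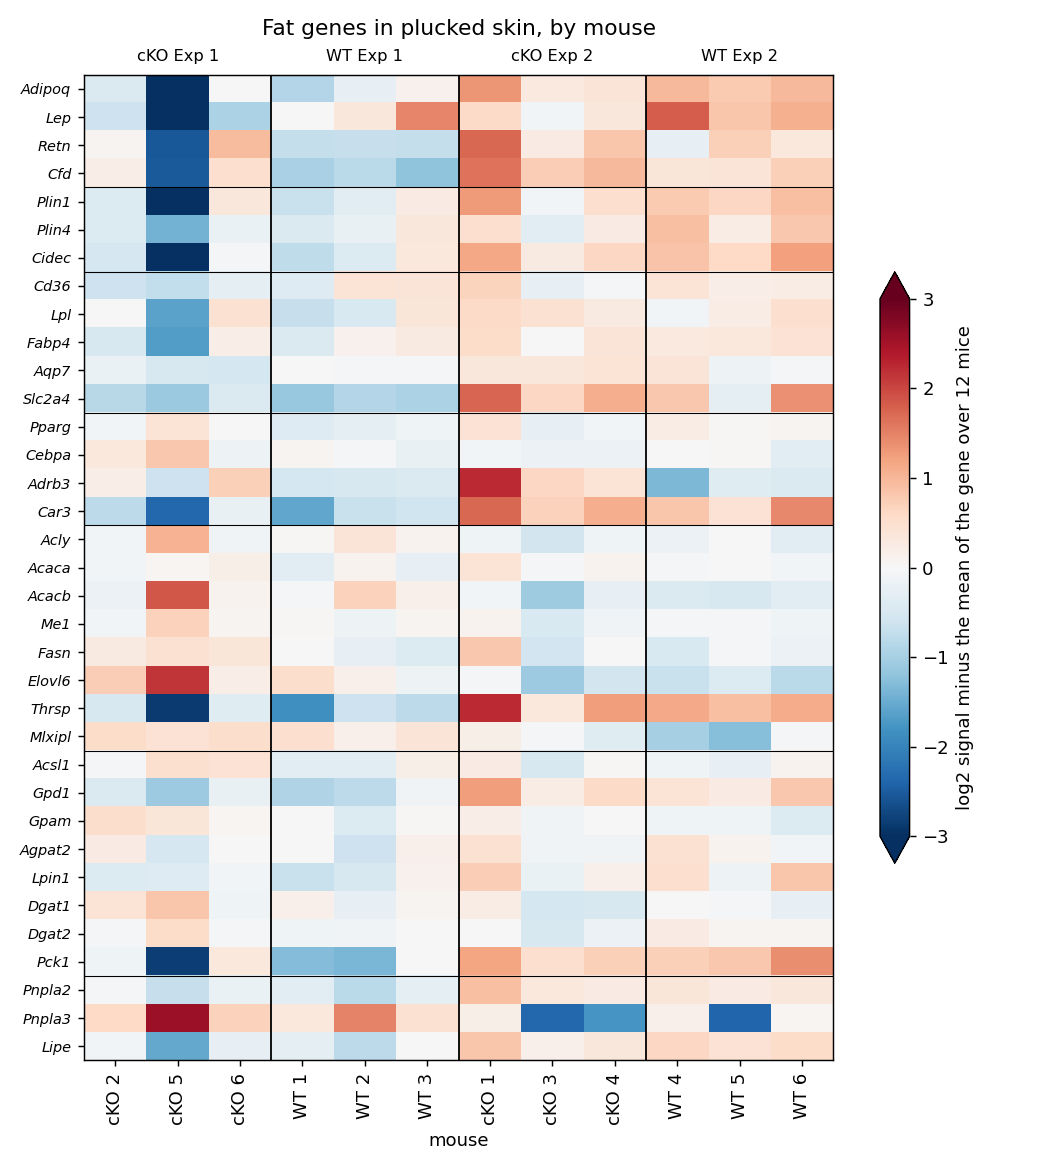
The log2 signal of each of the 35 genes minus its mean over the 12 mice (colour, cut at -3 and 3), with mice in columns by genotype and experiment and horizontal lines between the roles. Mouse cKO 5 has the lowest value of all 12 mice in 15 genes and the highest in 9.

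Leptin is the hormone by which adipocytes signal the size of the fat stores. Lep read -1.92, -6.05 and -2.24 in cKO mice 2, 5 and 6 of Exp 1, against -1.26, -0.95 and 0.17 in the WT mice of that experiment. In Exp 2 it read -0.71, -1.36 and -0.96 in cKO mice 1, 3 and 4, against 0.54, -0.46 and -0.22 in WT mice. Every cKO mouse thus lay below every WT mouse of its own experiment, and cKO mouse 5 lay far below all others. The probe was above background in 2 of the 3 cKO mice of Exp 1: the value of cKO mouse 5 is not a measured level, since the lowest signal well above background on its array was -4.06. Without that mouse the averaged difference was -1.18 (SE 0.29, adjusted p = 0.125), and it was -0.96 in Exp 2 (adjusted p = 0.977). With it the fit gave -1.84 averaged (adjusted p = 0.296) and -2.72 in Exp 1 (adjusted p = 0.305), sizes that depend on that spot. The lower reading did not pass the test in any of them.

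Only Lep and Gpam, 2 of 35 (5.71%), had cKO and WT mice that did not overlap in either experiment and differed the same way in both, against 2.96% of all genes. Gpam encodes a mitochondrial acyltransferase that takes the first step of glycerolipid synthesis. It read -2.17, -2.32 and -2.62 in cKO mice of Exp 1, against -2.67, -3.10 and -2.66 in WT mice. In Exp 2 it read -2.50, -2.80 and -2.69 in cKO mice, against -2.81, -2.82 and -3.10 in WT mice. The nearest mice of the genotypes lay close together in each experiment, and the averaged difference was 0.34 (SE 0.12, adjusted p = 0.298).

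Adrb3, the beta-3 adrenergic receptor through which sympathetic nerves start lipolysis, had the smallest p of the members in the averaged comparison. It read 0.79, -0.01 and 1.33 in cKO mice of Exp 1, against 0.09, 0.13 and 0.17 in WT mice, and those ranges overlap through cKO mouse 5. In Exp 2 it read 2.84, 1.22 and 1.02 in cKO mice, against -0.74, 0.25 and 0.16 in WT mice, with no overlap. The averaged difference was 1.19 (SE 0.34, adjusted p = 0.213) and that in Exp 2 was 1.81 (SE 0.48, adjusted p = 0.605). A second Adrb3 probe gave 0.68 averaged and 1.27 in Exp 2, the same direction at a smaller size.

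Complement factor D, or adipsin, is a protease that fat cells secrete in large amounts. Cfd read 6.62, 3.90 and 6.90 in cKO mice of Exp 1, against 5.43, 5.60 and 5.20 in WT mice, and 8.04, 7.16 and 7.38 in cKO mice of Exp 2, against 6.77, 6.79 and 7.13 in WT mice. In 5 of 6 cKO mice it was above every WT mouse of the same experiment, and in cKO mouse 5 it was below them all. The averaged difference was 0.51 (SE 0.45, adjusted p = 0.659). Without cKO mouse 5 it was 0.99 (SE 0.17, adjusted p = 0.040), and Cfd was then the only member called, where 0.655% of all genes were. Cfd, Adrb3, Gpam and Lep were then the 4 members whose genotypes did not overlap (11.4%, against 4.33% of all genes). Each mouse was left out in turn, and this mouse was singled out with its values in these genes known. It is also the mouse through which Cfd and Adrb3 overlapped, so neither the call nor the 4 members counts as support.

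Adiponectin, the most widely used marker of mature adipocytes, gave overlapping values. Adipoq read 3.06, 0.10 and 3.49 in cKO mice of Exp 1, against 2.62, 3.25 and 3.62 in WT mice. In Exp 2 it read 4.82, 3.79 and 3.88 in cKO mice, against 4.46, 4.28 and 4.46 in WT mice. The ranges overlapped in both experiments, and the averaged difference was -0.59 (SE 0.51, adjusted p = 0.657). It was -0.06 without cKO mouse 5, where the lipid droplet proteins Plin1 and Cidec likewise came to 0.01 and -0.10, against -0.53 and -0.61 with that mouse.

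**Figure D2:**
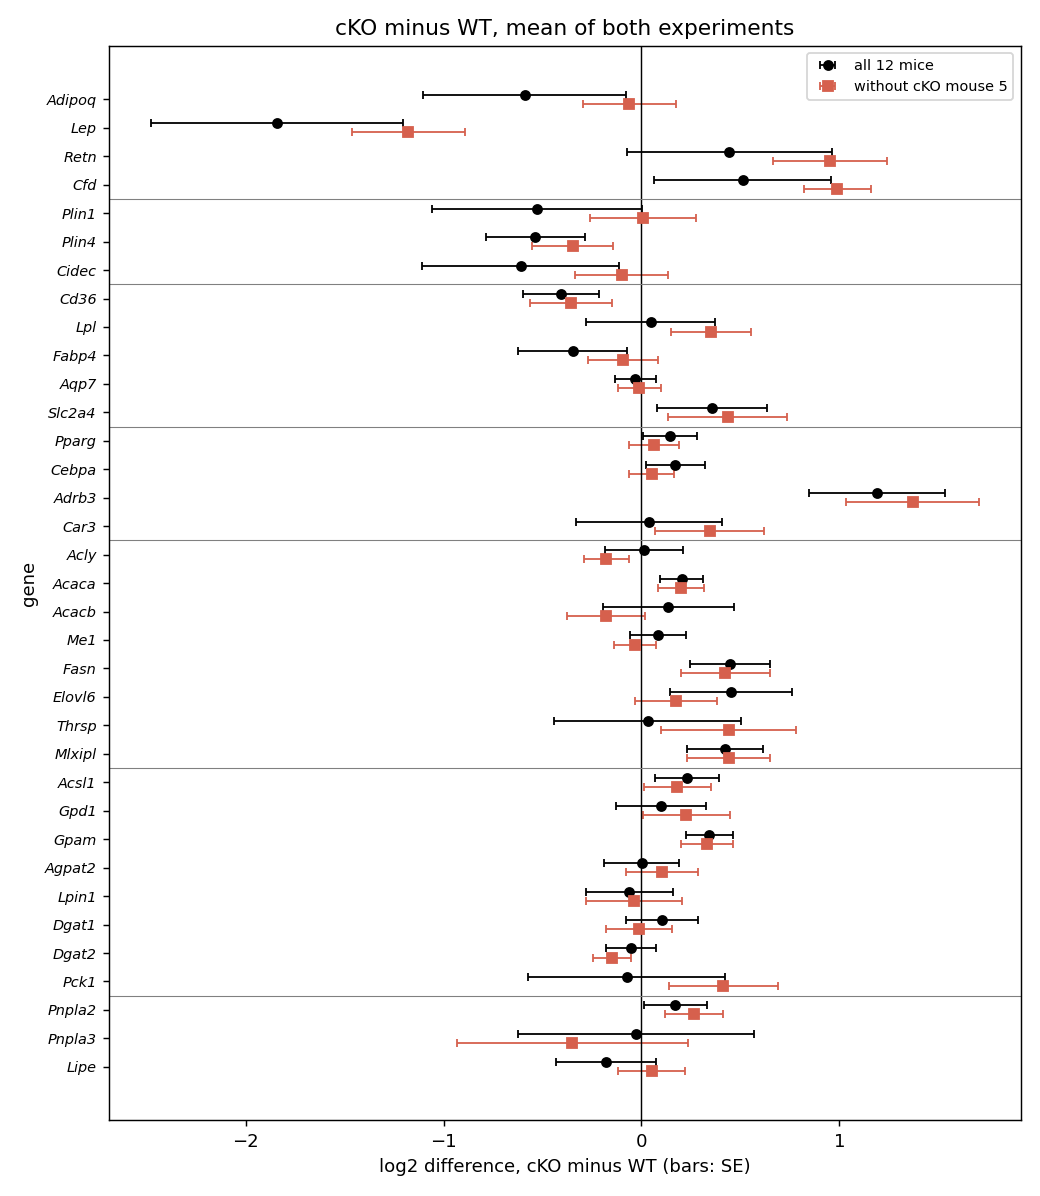
Difference between cKO and WT mice (log2, averaged over both experiments, bars are SE) for each of the 35 genes, with all 12 mice (black circles) and without cKO mouse 5 (red squares). Without that mouse Adipoq, Plin1 and Cidec lie between -0.10 and 0.01, and Lep and Adrb3 remain the genes farthest from 0.

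By role, all 8 genes of fatty acid synthesis and its regulators had a positive averaged difference, some of them near 0. These ran from 0.01 to 0.45, with a median of 0.17, and none passed the test. In the same contrast 9 of 11 sebaceous gland genes were above 0 (median 0.34), all 18 skeletal muscle genes were (median 2.27), and all 11 hair matrix and shaft genes were below 0 (median -0.47), with none called, and their part in these values was not tested beyond the fit with the muscle mean as a covariate, where 10 of the 16 synthesis genes were above 0. Fasn, the fatty acid synthase itself, read 0.87, 1.06 and 0.97 in cKO mice of Exp 1, against 0.62, 0.35 and 0.18 in WT mice, and 1.42, 0.03 and 0.61 in cKO mice of Exp 2, against 0.15, 0.54 and 0.43 in WT mice. The genotypes did not overlap in Exp 1 and overlapped in Exp 2. The averaged difference for Fasn was 0.45 (SE 0.20, adjusted p = 0.414). That of Acly, which makes the acetyl-CoA for the pathway, was 0.01 (SE 0.20, adjusted p = 0.987). Mlxipl, the carbohydrate-responsive transcription factor ChREBP, was at 0.42 (SE 0.19, adjusted p = 0.413).

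Within single experiments none of the 35 passed either: in Exp 1 0.117% of all genes did, in Exp 2 0.0618%, and in the interaction of genotype with experiment 0.00618%. At an unadjusted p under 0.05 there were 4 members in Exp 1 (11.4%, against 11.3% of all genes) and 2 in Exp 2 (5.71%, against 4.67%), about the share of all genes. After Lep, the smallest p values in Exp 1 were those of Gpam, at 0.44 (SE 0.17, adjusted p = 0.392), and of Aqp7, the glycerol channel of adipocytes, at -0.37 (SE 0.15, adjusted p = 0.393). In Exp 2 they were those of Mlxipl, at 0.70 (SE 0.27, adjusted p = 0.976), and of Aqp7, at 0.31 (SE 0.15, adjusted p = 0.977), after Adrb3. Aqp7, Adrb3 and Dgat2, an enzyme of the last step of triglyceride synthesis, had the smallest interaction p values. Their interaction terms were -0.69, -1.23 and 0.59, each with an adjusted p of 1.00. Dgat2 read 5.81, 6.39 and 5.81 in cKO mice of Exp 1, against 5.71, 5.74 and 5.83 in WT mice, and 5.86, 5.37 and 5.67 in cKO mice of Exp 2, against 6.09, 5.92 and 5.93 in WT mice. Its cKO mice lay below the WT mice in Exp 2 and overlapped them in Exp 1.

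The same genes separated the experiments. The contrast of Exp 1 with Exp 2 averaged over the genotypes, which was added after the data were seen, called 13 of 35 members (37.1%), against 20.2% of all genes. There were 10 lower in the older mice of Exp 1 (9.47% of all genes were) and 3 higher (10.7% of all genes). Of the 3 higher, Mlxipl had a second probe that was called lower. Of the adipocyte markers, 5 of 16 fell and none rose, and 15 of 16 were below 0, and their median difference was -0.99, against 0.01 over all genes. That median was -0.64 without cKO mouse 5 and -1.23 without cKO mouse 6. The 11 hair matrix and shaft genes were also all below 0 in this contrast, with a median of -0.99 and 2 called, and their part in the result was not tested. The lipid synthesis genes were split: 3 fell, 2 rose, 10 of 16 had a positive difference, and the median was 0.15, with 0.024 without cKO mouse 3 and 0.23 without cKO mouse 1. Within cKO mice alone 6 of 35 were called (17.1%, against 9.98% of all genes), 5 lower (4.6% of all genes) and 1 higher (5.38%), and within WT mice none was (0.84% of all genes), with 10 at an unadjusted p under 0.05 (28.6%, against 18.5% of all genes). The 3 smallest p values in WT mice were those of Mlxipl at 1.13 (adjusted p = 0.0746), Slc2a4 at -1.62 (adjusted p = 0.0757) and Pnpla2 at -0.80 (adjusted p = 0.0986). The genotypes were not shown to differ in this, since no member passed the interaction.

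The calls within 1 genotype changed when single mice were left out. The 6 in cKO mice were Aqp7, Slc2a4, Car3 at -2.29 (adjusted p = 0.0288), Gpd1 at -1.27 (adjusted p = 0.0377), Thrsp at -2.50 (adjusted p = 0.043) and Elovl6. None was left without cKO mouse 3 (157 of all genes called) or 4 (196), and 1 was left without cKO mouse 1 (591) or 5 (623). There were 3 without cKO mouse 2 (886) or WT mouse 4 (1010), and 12 without cKO mouse 6 (2324). In WT mice there were 4 without cKO mouse 5 (597 of all genes called): Cfd, Car3, Thrsp and Pck1. There was 1 without WT mouse 5 (414), Slc2a4, and 1 without WT mouse 6 (167), Mlxipl.

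**Figure D3:**
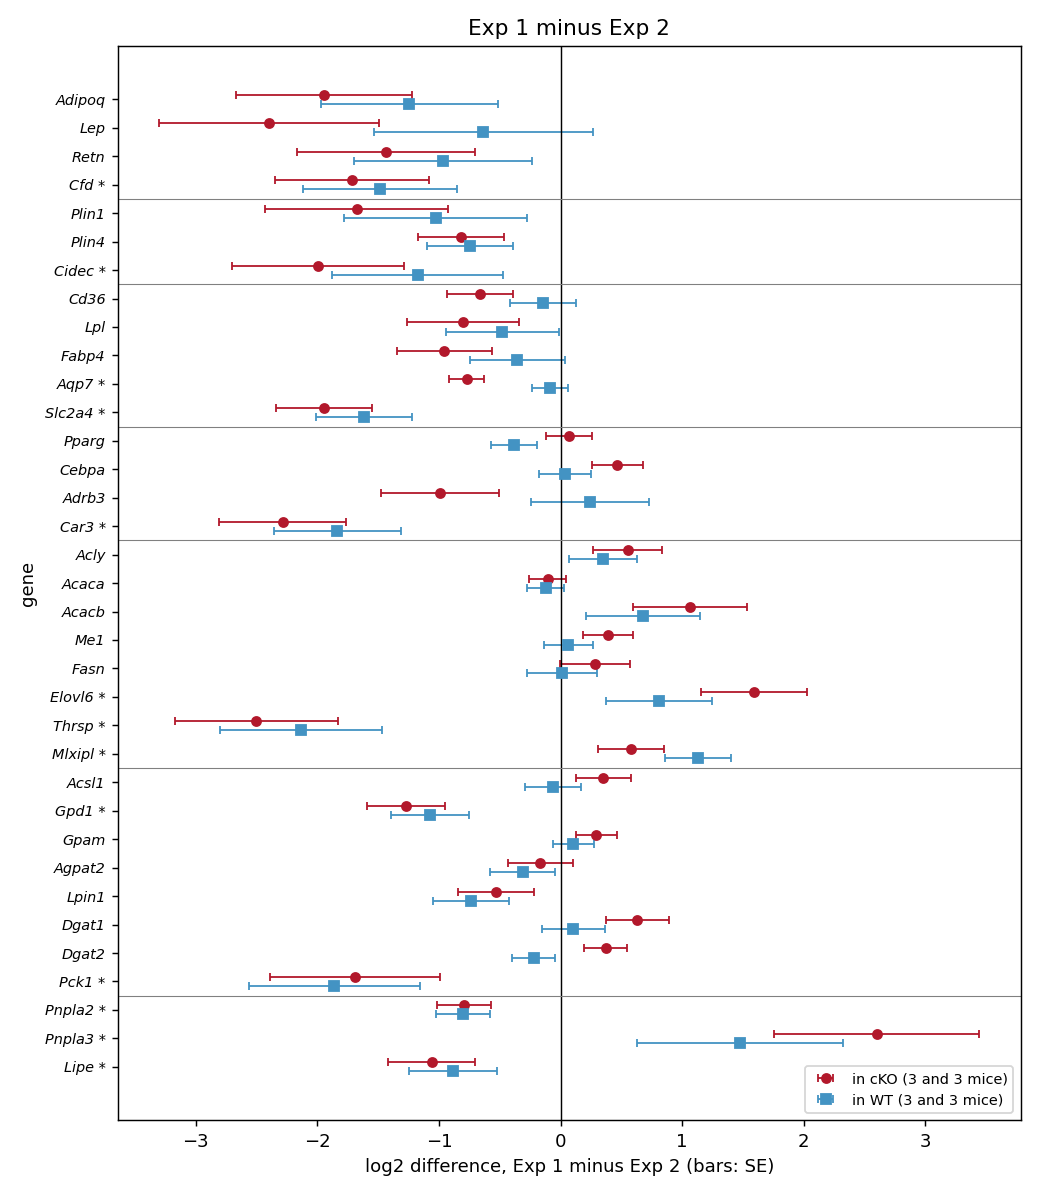
Difference between Exp 1 and Exp 2 (log2, bars are SE) for each of the 35 genes, in cKO mice (red circles) and in WT mice (blue squares), with genes called in the averaged contrast marked by a star. Of the 16 adipocyte markers 13 lie below 0 in both genotypes, and of the 16 lipid synthesis genes 8 lie above 0 in both.

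Among the secreted proteins, Cfd was lower in Exp 1, at a lowest, median and highest value of 3.90, 5.52 and 6.90, against 6.77, 7.15 and 8.04 in Exp 2. The averaged difference was -1.60 (SE 0.45, adjusted p = 0.0311). For Adipoq the 3 values were 0.10, 3.15 and 3.62 in Exp 1, against 3.79, 4.37 and 4.82 in Exp 2. Every Exp 1 mouse was below every Exp 2 mouse for Adipoq, and its difference of -1.59 (SE 0.51) just missed the threshold (adjusted p = 0.0517). It passed without cKO mouse 5 at -1.06 (SE 0.23, adjusted p = 0.014), without cKO mouse 2 at -1.81 (adjusted p = 0.0432) and without cKO mouse 6 at -1.91 (adjusted p = 0.0213), and without none of the other 9 mice. Lep at -1.52 (adjusted p = 0.119), with the unmeasured spot of cKO mouse 5, and Retn, which encodes resistin, at -1.20 (adjusted p = 0.126) did not pass.

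On the lipid droplet, Cidec, a protein that fuses droplets into the single large one of white fat cells, fell. It read 3.07, 0.23 and 3.50 in cKO mice of Exp 1, against 4.74, 3.85 and 4.20 in those of Exp 2, and 2.81, 3.17 and 3.89 in WT mice of Exp 1, against 4.42, 4.18 and 4.80 in those of Exp 2. Within each genotype the experiments did not overlap, and the averaged difference was -1.58 (SE 0.50, adjusted p = 0.0474). A second Cidec probe gave -1.89 and did not pass (adjusted p = 0.0617). The droplet coats Plin1, at -1.35 (adjusted p = 0.0985), and Plin4, at -0.78 (adjusted p = 0.050 and not below the threshold), did not pass.

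Of the transporters, Slc2a4 had the largest fall. It encodes GLUT4, the glucose transporter that insulin moves to the surface of fat and muscle cells. In cKO mice it read 0.97, 0.69 and 1.37 in Exp 1, against 3.54, 2.43 and 2.89 in Exp 2, and in WT mice 0.68, 0.93 and 0.85 in Exp 1, against 2.61, 1.52 and 3.17 in Exp 2. The experiments did not overlap in either genotype. The averaged difference was -1.78 (SE 0.28, adjusted p = 0.00362), a 3.43-fold lower signal in Exp 1, with -1.94 in cKO mice (adjusted p = 0.0225) and -1.62 in WT mice (adjusted p = 0.0757). Skeletal muscle also makes GLUT4, and WT mouse 5, the Exp 2 mouse with the lowest muscle signal, had the lowest Slc2a4 of its experiment. In Exp 1 cKO mouse 5 had the highest muscle mean, -0.57, and an Slc2a4 of 0.69. WT mice 2 and 3, with the lowest muscle means, -4.74 and -4.76, read higher. The highest Slc2a4 of Exp 1 was in cKO mouse 6, with a muscle mean of -0.67. Beyond the fit with the muscle mean as a covariate, which cannot separate muscle from experiment, the part of muscle in Slc2a4 was not tested.

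The glycerol channel Aqp7 read -2.43, -2.71 and -2.75 in cKO mice of Exp 1, against -1.88, -1.88 and -1.81 in those of Exp 2, and -2.23, -2.26 and -2.27 in WT mice of Exp 1, against -1.85, -2.38 and -2.27 in those of Exp 2. The experiments were apart in cKO mice and overlapped in WT mice. Its difference was -0.77 in cKO mice (SE 0.15, adjusted p = 0.0185), -0.09 in WT mice (adjusted p = 0.797) and -0.43 averaged (SE 0.10, adjusted p = 0.0173). The fatty acid carrier Fabp4 was lower by less than its spread. It read 6.57, 5.39 and 7.26 in cKO mice of Exp 1, against 7.60, 7.03 and 7.45 in those of Exp 2, and 6.63, 7.19 and 7.33 in WT mice of Exp 1, against 7.35, 7.38 and 7.50 in those of Exp 2. The experiments overlapped in cKO mice and only just parted in WT mice, and the difference was -0.66 (SE 0.28, adjusted p = 0.118). Cd36 and Lpl, which bring fatty acids into the cell, were at -0.41 and -0.64 and did not pass, while a second Lpl probe did, at -1.06 (SE 0.33, adjusted p = 0.0449).

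The regulators of the adipocyte did not pass. Pparg, the master transcription factor of fat cells, was at -0.16 (SE 0.13, adjusted p = 0.443), and Cebpa, its partner, at 0.25 (SE 0.15, adjusted p = 0.257), the sole positive value among the 16 markers. Both are also made by sebocytes or keratinocytes of the skin. The strongest fall of the marker class was in Car3, carbonic anhydrase 3, an abundant cytosolic protein of fat and of slow muscle. Car3 read 5.23, 3.66 and 5.80 in cKO mice of Exp 1, against 7.74, 6.71 and 7.10 in those of Exp 2, and 4.46, 5.36 and 5.43 in WT mice of Exp 1, against 6.86, 6.45 and 7.46 in those of Exp 2. All 6 mice of Exp 1 lay below all 6 of Exp 2, and the averaged difference was -2.06 (SE 0.37, adjusted p = 0.00566), a 4.17-fold lower signal.

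The synthesis genes did not move as a block: Thrsp fell, Elovl6 rose, and Fasn did not pass the test. Their promoters are shown to set these 3 patterns beside the sequence at the gene starts. They are RefSeq promoters of GRCm38.p6, 250 bases before to 50 after the start of the gene, written on the strand of the gene, with the motif CCAAT (or ATTGG, its other strand) in capitals.
Thrsp, chr7:97417501-97417800, minus strand: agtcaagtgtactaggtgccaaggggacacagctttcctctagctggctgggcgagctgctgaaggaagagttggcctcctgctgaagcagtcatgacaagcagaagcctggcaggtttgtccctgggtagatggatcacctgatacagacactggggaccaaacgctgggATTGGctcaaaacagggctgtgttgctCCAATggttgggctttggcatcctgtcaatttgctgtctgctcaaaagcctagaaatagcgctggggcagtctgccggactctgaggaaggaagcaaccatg
Elovl6, chr3:129532136-129532435, plus strand: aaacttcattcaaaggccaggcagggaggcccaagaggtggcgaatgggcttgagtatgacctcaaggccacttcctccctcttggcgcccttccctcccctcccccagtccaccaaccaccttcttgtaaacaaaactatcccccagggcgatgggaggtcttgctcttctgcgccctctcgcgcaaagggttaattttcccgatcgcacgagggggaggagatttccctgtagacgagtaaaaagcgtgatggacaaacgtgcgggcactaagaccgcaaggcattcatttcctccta
Fasn, chr11:120824498-120824797, minus strand: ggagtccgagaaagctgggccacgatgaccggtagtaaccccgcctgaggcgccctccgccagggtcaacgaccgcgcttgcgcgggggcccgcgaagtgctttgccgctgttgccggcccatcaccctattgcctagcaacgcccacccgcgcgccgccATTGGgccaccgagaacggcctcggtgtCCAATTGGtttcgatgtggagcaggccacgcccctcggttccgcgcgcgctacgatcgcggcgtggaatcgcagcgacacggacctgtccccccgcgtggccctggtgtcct
CCAAT was in the windows of Thrsp and Fasn and not in that of Elovl6. Of the 27 members with a promoter in the table, 13 held it in a promoter (48.1%), against 41.1% of all 27025 genes in the table. Searched on both strands, the E-box CACGTG was in 2 of the 27, those of Lipe and Mlxipl (7.41%), against 8.09% of all genes. A missing match says only that these letters are not in that window.

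Thrsp, also called Spot 14, is a small nuclear protein that follows the lipogenic rate of fat and liver. In cKO mice it read 0.69, -1.70 and 0.81 in Exp 1, against 3.41, 1.48 and 2.43 in Exp 2, and in WT mice -0.68, 0.55 and 0.39 in Exp 1, against 2.30, 2.08 and 2.29 in Exp 2. All Exp 1 mice were below all Exp 2 mice. The averaged difference of -2.32 (SE 0.47, adjusted p = 0.00931) was a 4.99-fold lower signal, the largest of the members in size.

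Elovl6, which lengthens palmitate to stearate, went the other way. It read 6.29, 7.68 and 5.75 in cKO mice of Exp 1, against 5.49, 4.47 and 4.99 in those of Exp 2, and 6.08, 5.69 and 5.41 in WT mice of Exp 1, against 4.88, 5.14 and 4.74 in those of Exp 2. Within each genotype Exp 1 lay above Exp 2, and cKO mouse 5 was the highest of all. The difference was 1.20 averaged (SE 0.31, adjusted p = 0.0224) and 1.59 in cKO mice (SE 0.44, adjusted p = 0.0459).

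Mlxipl rose as well, with 2.47, 2.35 and 2.45 in cKO mice of Exp 1, against 2.09, 1.87 and 1.56 in those of Exp 2, and 2.43, 2.08 and 2.32 in WT mice of Exp 1, against 0.92, 0.65 and 1.86 in those of Exp 2. The experiments did not overlap within either genotype, and the averaged difference was 0.86 (SE 0.19, adjusted p = 0.0129). A second Mlxipl probe gave -0.88 (adjusted p = 0.0475), so the direction of this gene rests on the probe. Of the 13 other kept probes of 11 members, 9 had the sign of the brighter probe in this contrast.

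The core enzymes of fatty acid synthesis did not pass. Fasn was at 0.15 (SE 0.20, adjusted p = 0.649), with Exp 1 mice between 0.18 and 1.06 and Exp 2 mice between 0.03 and 1.42. Acly read 5.13, 6.26 and 5.11 in cKO mice of Exp 1, against 5.09, 4.67 and 5.09 in those of Exp 2, and 5.24, 5.60 and 5.32 in WT mice of Exp 1, against 5.04, 5.20 and 4.87 in those of Exp 2. Exp 1 lay above Exp 2 within each genotype for Acly, and its difference of 0.45 (SE 0.20) had an adjusted p of 0.133. Acaca and Acacb, the acetyl-CoA carboxylases, were at -0.11 and 0.87, and Me1, the malic enzyme that supplies NADPH, at 0.23.

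In triglyceride assembly the 2 genes that fell both serve to make glycerol phosphate, the backbone of triglycerides. Gpd1, glycerol-3-phosphate dehydrogenase, read 3.43, 2.77 and 3.63 in cKO mice of Exp 1, against 5.12, 4.09 and 4.44 in those of Exp 2, and 2.97, 3.09 and 3.77 in WT mice of Exp 1, against 4.27, 4.11 and 4.68 in those of Exp 2. Pck1, which feeds glyceroneogenesis in fat, read 1.35, -1.35 and 1.79 in cKO mice of Exp 1, against 2.67, 1.99 and 2.20 in those of Exp 2, and 0.18, 0.11 and 1.47 in WT mice of Exp 1, against 2.19, 2.28 and 2.88 in those of Exp 2. For both genes the experiments did not overlap. The differences were -1.17 for Gpd1 (SE 0.23, adjusted p = 0.00765) and -1.78 for Pck1 (SE 0.50, adjusted p = 0.0312). The acyltransferases and other assembly enzymes (Acsl1, Gpam, Agpat2, Lpin1, Dgat1 and Dgat2) lay between -0.63 and 0.37, and none passed.

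All 3 lipases were called, in different directions. Pnpla2, the adipose triglyceride lipase ATGL, read 3.64, 2.99 and 3.47 in cKO mice of Exp 1, against 4.58, 3.98 and 3.92 in those of Exp 2, and 3.34, 2.86 and 3.37 in WT mice of Exp 1, against 4.03, 3.93 and 4.02 in those of Exp 2. Lipe, the hormone-sensitive lipase, read -0.17, -1.62 and -0.33 in cKO mice of Exp 1, against 0.75, 0.05 and 0.24 in those of Exp 2, and -0.38, -0.88 and -0.07 in WT mice of Exp 1, against 0.52, 0.34 and 0.46 in those of Exp 2. Both were lower in every Exp 1 mouse, by -0.80 for Pnpla2 (SE 0.16, adjusted p = 0.00831) and -0.97 for Lipe (SE 0.25, adjusted p = 0.0238).

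Pnpla3, a relative of ATGL that follows lipogenic feeding in liver, read 1.02, 2.99 and 1.10 in cKO mice of Exp 1, against 0.60, -1.93 and -1.36 in those of Exp 2, and 0.73, 1.91 and 0.87 in WT mice of Exp 1, against 0.57, -1.95 and 0.47 in those of Exp 2. Every Exp 1 mouse was above every Exp 2 mouse, and 3 Exp 2 mice were far below the rest. The difference of 2.04 (SE 0.60, adjusted p = 0.0371) was 0.57 on a second, dimmer Pnpla3 probe (adjusted p = 0.124).

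Counted over the members, 9 of 35 (25.7%) had no overlap between the experiments, against 10.3% of all genes. Lower in every Exp 1 mouse were Adipoq, Slc2a4, Car3, Thrsp, Gpd1, Pck1, Pnpla2 and Lipe, 8 of 35, against 4.56% of all genes. Higher was Pnpla3, against 5.73%. Leaving out each mouse in turn, 7 of the 13 calls held every time, those of Aqp7, Slc2a4, Car3, Thrsp, Mlxipl, Gpd1 and Pnpla2. That of Mlxipl is for its brighter probe only, since a second probe was called in the other direction, at -0.88 (adjusted p = 0.0475). The calls of Cfd and Cidec held in 3 of 12 such fits, that of Pck1 in 4, of Pnpla3 in 5, and of Elovl6 and Lipe in 9. The number of members called ranged from 8, without WT mouse 1, 2 or 4, to 19, without cKO mouse 6. Of all 16181 genes, 2474, 2483 and 1994 were called without WT mouse 1, 2 and 4, and 3561 without cKO mouse 6.

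Set side by side within each mouse, the marker mean separated the experiments and the synthesis mean did not. The mean of the adipocyte markers, each gene centred over the 12 mice, was -0.29, -1.79 and 0.02 in cKO mice 2, 5 and 6 of Exp 1 and -0.59, -0.29 and -0.05 in the WT mice. In Exp 2 it was 1.02, 0.20 and 0.45 in cKO mice 1, 3 and 4 and 0.43, 0.29 and 0.58 in the WT mice. The experiments did not overlap in this mean. The value of cKO mouse 5 includes its Lep spot, which was not above background.

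The mean of the synthesis genes did overlap. It was 0.05, 0.08 and 0.09 in cKO mice and -0.26, -0.24 and -0.02 in WT mice of Exp 1, against 0.49, -0.29 and 0.04 in cKO mice and 0.02, -0.04 and 0.11 in WT mice of Exp 2. Synthesis minus identity was therefore above 0 in 6 of 6 Exp 1 mice, from 0.02 to 1.86, and below 0 in 6 of 6 Exp 2 mice, from -0.54 to -0.33. The 0 is set by centring over these same mice, so the opposite signs follow once the experiments separate. The median synthesis mean was 0.01 in Exp 1 and 0.03 in Exp 2, so the separation restates that of the markers. By group it averaged 0.75 ± 0.97 in cKO and 0.13 ± 0.17 in WT mice of Exp 1, and -0.48 ± 0.06 in cKO and -0.41 ± 0.07 in WT mice of Exp 2 (SD, n = 3 each). Since Thrsp, Gpd1 and Pck1 are counted among the synthesis genes and fell like the markers, the split does not follow the 2 class names gene by gene.

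**Figure D4:**
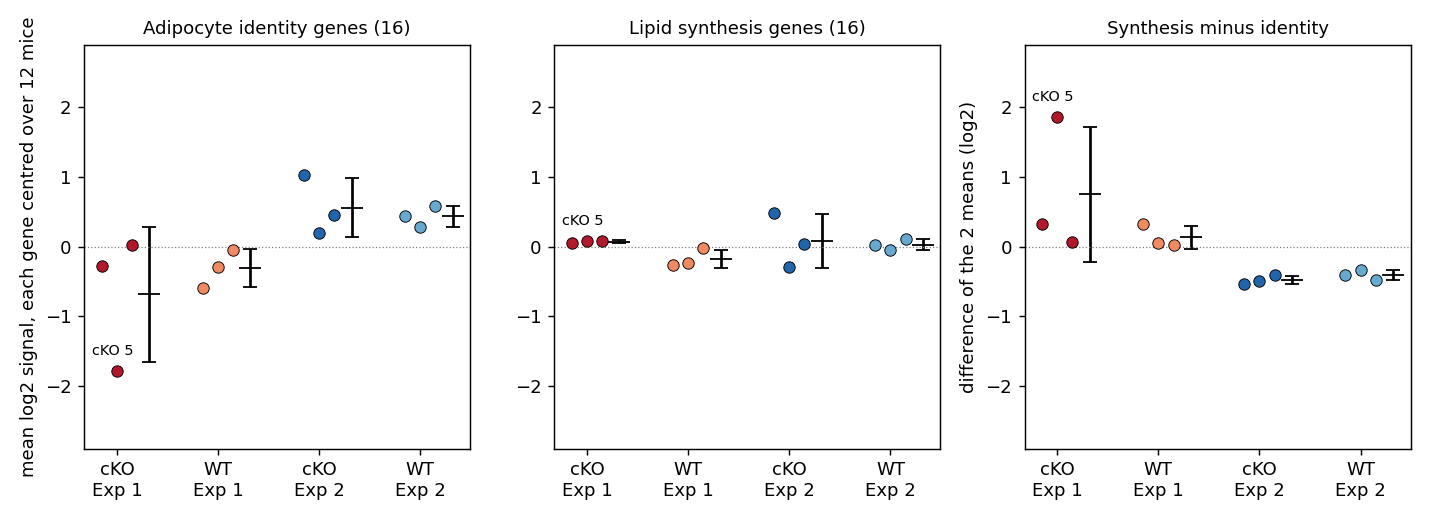
Mean centred log2 signal per mouse of the 16 adipocyte markers and of the 16 lipid synthesis genes, and the difference between these means, with the mean and SD of each group of 3 mice beside its points. The difference lies above 0 in all 6 mice of Exp 1 and below 0 in all 6 of Exp 2, where 0 is set by the centring over the mice. In it cKO mouse 5 stands apart at 1.86.

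The muscle signal moved with this contrast. All 18 skeletal muscle genes were lower in Exp 1, with a median difference of -6.04. With the muscle mean of each mouse as a covariate no member was called, and no gene at all among 16181. The muscle mean was below 0 in all 6 mice of Exp 1 and above 0 in 5 of 6 of Exp 2. It thus largely follows the experiment, and the absence of calls in this fit cannot separate muscle from experiment. With that covariate Car3 was at -1.68, Thrsp at -2.54, Pck1 at -1.99, Pnpla2 at -0.79 and Slc2a4 at -0.58, with adjusted p values from 0.272 to 0.504. In single mice the 2 signals did not go together throughout. The muscle mean was -1.96 in WT mouse 5 of Exp 2, below the -0.57 and -0.67 of cKO mice 5 and 6 of Exp 1, while its marker mean of 0.29 was above theirs. Beyond the covariate fit, which has that limit, the part of muscle in the result was not tested.

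**Figure D5:**
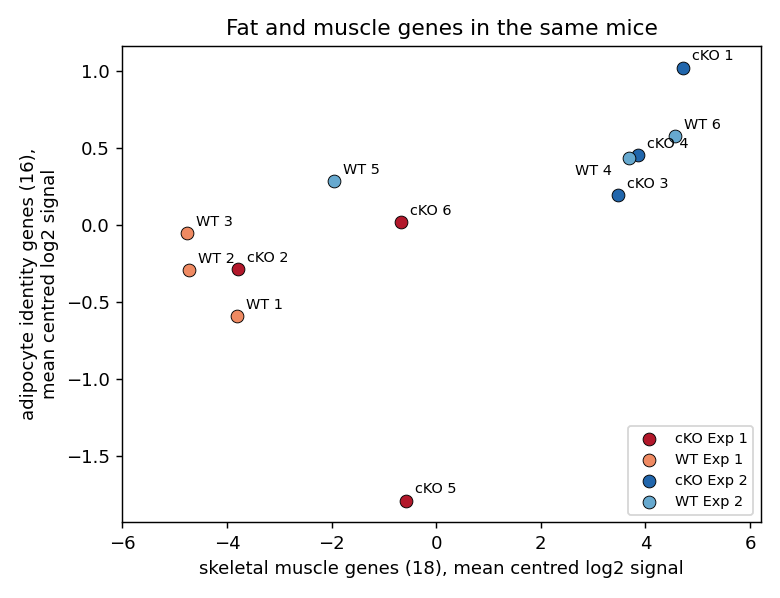
Mean of the 16 adipocyte markers against the mean of 18 skeletal muscle genes in the same mouse (centred log2 signals), coloured by group. In WT 5 the muscle mean is -1.96 and the adipocyte mean 0.29, and in cKO 5 they are -0.57 and -1.79. The adipocyte mean of cKO 5 includes its Lep spot, which was not above background.

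As a list, sebaceous gland genes moved the other way from the adipocyte markers, though not all of them did. Of 11 measured, 5 were called higher in Exp 1 (45.5%, against 10.7% of all genes) and none lower. By sign 7 were above 0 and 4 below, with a median of 0.82 and a lowest value of -0.87. Their mean per mouse lay between 0.14 and 0.84 in cKO mice and between -0.14 and 0.36 in WT mice of Exp 1, against -0.49 to 0.03 in cKO mice and -0.43 to -0.10 in WT mice of Exp 2. Sebocytes make much of the fatty acid synthesised in skin, and the mouse with the highest sebaceous mean was cKO mouse 5. Of the 16 synthesis genes, 7 were highest of all mice in it (Acly, Acacb, Me1, Elovl6, Acsl1, Dgat1 and Dgat2) and 3 were lowest (Thrsp, Gpd1 and Pck1), while Fasn and Acaca were highest in cKO mouse 1. The lowest mean of the 11 hair matrix and shaft genes was in cKO mouse 5 too, at -2.67, against values between -0.34 and 0.74 in the other 11 mice. What sebaceous glands contributed to the synthesis genes was not tested.

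The arrays lay on 3 slides, with 6, 5 and 1 arrays, and 2 of the slides held mice of all groups. With slide as a block, 16 members were called in the averaged contrast of the experiments, 14 lower and 2 higher, where 2276 of all 16181 genes were called. Gained were Adipoq at -1.99 (adjusted p = 0.0272), Retn at -1.67, Plin1 at -1.79, Plin4 at -0.97 and Cd36 at -0.60, with adjusted p values from 0.0272 to 0.0442. Lost were Aqp7 at -0.42 (adjusted p = 0.0558) and Pnpla3 at 1.93 (adjusted p = 0.0755). Within slide 1 and within slide 2 some groups held 1 mouse, so only sizes are given for these fits. Thrsp was at -2.13 within slide 1. The spread within slide 2 came from a single pair of mice, which leaves 1 residual degree of freedom. Slc2a4 was at -1.50 within slide 1 and -2.21 within slide 2, Car3 at -1.64 and -3.07, Elovl6 at 0.47 and 1.98, and Pnpla3 at 1.90 and 2.28. All 13 called members kept their direction within both slides.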

How the data were processed

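Per the labels, RNA isolated with Trizol and a QIAGEN kit was copied by T7 polymerase with Cy3-CTP. Per the file headers, the deposited scanner files of Feature Extraction 11.5.1.1 hold gProcessedSignal, a background-subtracted intensity that is not scaled between arrays, with flags for spots above background, saturated or outlying. A table of log2 values was also deposited by the authors, and the submitters' processing notes name limma. How the table was background-corrected and normalized is not stated in those sources. For cKO mouse 1 the table and the scanner file did not match (r = 0.34 across probes), so the table was an alternative only.

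Outlier spots were left out, log2 intensities were averaged per probe, and each array's 75th percentile (364 to 554 intensity units) was subtracted. No spot of a member was saturated. Probe names came from RefSeq transcripts (GRCm38.p6), which named 27509 of 55681 probes. A probe was kept when well above background on at least 3 arrays, and the kept probe with the highest mean stood for its gene. limma 3.58.1 in R 4.3.3 fitted a mean for each of the 4 groups to all 16181 genes (degrees of freedom: 8 residual, 2.30 prior), with Benjamini-Hochberg adjustment over all genes and a threshold of 0.05, two-sided. There were 6 planned contrasts, and the contrast of experiments averaged over genotypes was added after the data were seen. The fit was tested on simulated data.

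The members and marker lists were chosen with earlier results of these data known. Values in every mouse were printed for members past the threshold in any contrast, for the 3 smallest p values where a contrast called none, and for Adipoq, Lep, Fabp4, Fasn, Acly and Elovl6. Cfd and some others were also read without cKO mouse 5. Of other lists up to 4 names a contrast were given by smallest p. Alternatives were the filter, the scaling, normexp (on gMedianSignal, because the files hold no gMeanSignal) with quantile normalization, the mean of all probes, the authors' table, slide, the muscle mean as a covariate, and leaving out each mouse. The samples are separate mice by their labels.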

Additional observations from a re-analysis of the deposited data

Results flagged for a closer look

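Among the 76 sets of 6 mice of 1 genotype that were checked, 14 had a mouse whose gap to the nearest other passed the 95% critical value of Dixon's test for an outlier. Chance gives such a gap in about 1 in 20 sets drawn from 1 population. Here each set pools 3 mice of each experiment, and the genes share the same 12 mice, so that share is no measure for these flags. In cKO mice all of them were cKO mouse 5 of Exp 1. It was the lowest of 6 for Adipoq at 0.10, Lep at -6.05 (not above background), Cfd at 3.90, Plin1 at -1.71, Cidec at 0.23, Lpl at 3.24 and Pck1 at -1.35. It was the highest of 6 for Acly at 6.26 and for the difference of synthesis minus identity at 1.86. That mouse also had the lowest share of probes above background, and the part of array quality in these values was not tested.

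In WT mice the gaps fell on different animals. WT mouse 1 was lowest for Cd36 at 1.59 and for Fabp4 at 6.63. WT mouse 4 was highest for Aqp7 at -1.85 and lowest for Adrb3 at -0.74, and WT mouse 5 was lowest for Pnpla3 at -1.95.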

How the results depend on the processing

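Of 581 alternative values for counts and medians, 531 stayed near the reported one. Members called between genotypes (none) became 5 averaged, 11 in Exp 1 and 4 in the interaction within slide 2, and 0 to 1 when single mice were left out. In the cKO contrast of experiments, 6 calls became 3 with no filter, 0 in the authors' table, 1 with slide as a block, 2 within slide 1, 21 within slide 2, 0 with the muscle covariate and 0 to 12 without single mice (0 without cKO mouse 3 or 4, 12 without cKO mouse 6). In the WT contrast, none became 1 with median scaling (277 of all 16181 genes) and 0 to 4 without single mice, with 4 without cKO mouse 5 (597). Averaged, 13 became 1, 23 and 0 within slide 1, within slide 2 and with the covariate, and 8 to 19 without single mice. The identity median moved within slide 2 to -0.95 (genotype in Exp 1), -1.11 (interaction), -2.13 (cKO contrast) and -1.77 (averaged contrast), and within slide 1 to 0.52 (genotype in Exp 2). Without single mice it ranged from -0.84 to 0.20 in the interaction and from -1.75 to -0.62 in the cKO contrast. The synthesis median moved within slide 1 to 0.39 for genotype averaged, 0.39 for genotype in Exp 2, -0.23 in the interaction, -0.085 in the cKO contrast and -0.076 averaged. For genotype in Exp 2 it was 0.25 in the authors' table, 0.26 with slide as a block and -0.20 to 0.24 without single mice. In the interaction it was 0.44 in the authors' table without cKO mouse 1 and 0.46 within slide 2, and in the cKO contrast 0.10 in the authors' table. Averaged over genotypes the identity median ranged without single mice from -1.23 to -0.64 and the synthesis median from 0.024 to 0.23, and between genotypes the synthesis median from 0.0016 to 0.23. Synthesis minus identity ranged without single mice from 0.37 (without cKO mouse 5) to 1.10 in cKO mice of Exp 1, from 0.066 to 0.30 in WT mice of Exp 1, from -0.55 to -0.31 in cKO mice of Exp 2 and from -0.47 to -0.24 in WT mice of Exp 2. Mlxipl reversed to -0.012 between experiments with the mean of all its probes. For single members 630 of 780 alternatives kept direction and side of the threshold, 143 lost the call and 6 gained it. The 780 include results that were not called at the outset and so could not lose a call. For the called results, the alternatives that kept the call ran from 6 of 23 (Elovl6, cKO contrast) to 22 of 23 (Thrsp, averaged contrast). Why a value changed was not tested.

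No paired analysis was possible because WT and cKO mice of an experiment share only 1 mouse number, and nothing in the labels ties equal numbers together. The groups hold 3 mice each, so 1 mouse can decide a call, and dim members such as Gpam and Aqp7 lie well below the 75th percentile of their arrays.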

Other observations

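Other genes of lipid metabolism, a list of 36 that are not members, were set beside them. Between the experiments 8 were called lower in Exp 1 (22.2%, against 9.47% of all genes) and 3 higher (8.33%, against 10.7%), and none was called between genotypes. The 4 with the smallest p were Ebf2, a transcription factor of the adipocyte lineage, at -1.43 (SE 0.22, adjusted p = 0.0035), Nr1h3, the oxysterol receptor LXR alpha, at -0.67 (SE 0.11, adjusted p = 0.0042), Pdk4, which blocks glucose oxidation in fasting muscle and fat, at -2.12 (SE 0.44, adjusted p = 0.0098), and Elovl5, an elongase of polyunsaturated fatty acids, at 0.63 (SE 0.15, adjusted p = 0.017). Ebf2 read from -3.54 to -2.35 in Exp 1 and from -1.69 to -0.91 in Exp 2, with no overlap. Pdk4 in WT mouse 5 of Exp 2, at -0.97, lay among the Exp 1 mice, and that mouse had the lowest muscle signal of Exp 2. The part of muscle in Pdk4 was not tested.

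Of the brown and beige fat list 7 of 9 genes were measured. Cox7a1, a cytochrome oxidase subunit of brown fat and muscle, was lower in Exp 1 at -2.72 (SE 0.42, adjusted p = 0.0036), and Cidea, a droplet protein of brown fat that sebaceous glands also make, was higher at 1.19 (SE 0.27, adjusted p = 0.014). Ucp1, which defines brown fat, was not among the genes kept. Of 9 adipocyte precursor genes measured, 3 were lower in Exp 1 and none higher: Dlk1 at -0.87, Pdgfra at -0.67 and Zfp423 at -0.74. None of either list differed between genotypes by the test. Against the same shares of all genes, of 7 macrophage genes 5 were lower and 1 higher in Exp 1, and of 8 endothelial genes 2 were lower.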
